A study of Mus musculus with 4 samples.

Results

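Imprinted loci grouped under methylation laid down in the paternal germline were followed through 8 genes at 4 loci. The genes were H19, Igf2, Dlk1, Meg3, Rian, Mirg, Rasgrf1 and Zdbf2. They were chosen by name, and each symbol matched 1 row of the deposited FPKM table, which holds 37653 genes, and through its gene identifier 1 row of the deposited count table, which holds 55335. The mutant samples were cultured spermatogonial stem cells (SSCs) labelled Tex11PM/Y, a name for male cells whose only copy of the X-linked gene Tex11, needed for crossovers in meiosis, is the PM allele. What PM stands for is not given in the labels. The WT samples were SSCs without that allele, and each genotype had 2 libraries. Both genotypes came from testes of C57/BL6*DBA2 mice at postnatal day 10, were kept in standard medium with a passage at intervals of 5 to 10 days, and were collected on a cell sorter. Poly(A) RNA was sequenced from 1 µg of total RNA. No source states whether replicate libraries stem from different cultures or mice, so the p-values measure the spread between these libraries, which may be technical. The 2 Tex11PM/Y libraries share a column name in the tables and are called A and B.

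Imprinted genes are read from only the maternal or only the paternal chromosome, according to DNA methylation that differed between egg and sperm. Most such marks come from the egg, and a few are set in male germ cells before birth. Among these few are the marks between H19 and Igf2, between Dlk1 and Meg3 and upstream of Rasgrf1. Zdbf2 was grouped with these loci, and the germline in which its mark arises was not examined here. In somatic cells the methylated paternal copy expresses the protein-coding genes Igf2, Dlk1, Rasgrf1 and Zdbf2, and the unmethylated maternal copy expresses the noncoding RNAs H19, Meg3, Rian and Mirg. Spermatogonia carry the paternal type of mark on both copies, and imprints in cultured SSCs are followed as a sign of how far the cells have kept their germline state. The tables analysed here give RNA summed over both copies and no methylation.

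Sequences at the annotated starts are shown because CG dinucleotides are the letters that methylation acts on. The windows were set by those starts and were not chosen as the regions that carry the imprint marks. RefSeq (GRCm38.p6, the assembly also called mm10) gave a window of 250 bases before to 50 bases after a start for 7 of the 8 genes, all but H19. Capitals mark CG, which reads the same on both strands. Over all 32851 RefSeq windows, 94.6% held at least 1 CG and the median number was 7. The window at the first Meg3 start, chr12:109540746-109541045 on the plus strand, held 13 CG, and the Dlk1 window, chr12:109452573-109452872 on the plus strand, held 9. Zdbf2 has 2 annotated starts on the plus strand that lie 72911 bases apart. The upstream window, chr1:63200108-63200407, held 15 CG and lies inside the gene Gpr1. The downstream window, chr1:63273019-63273318, held 38 CG, and 95.0% of windows held fewer. The Rian window held 0 CG, the window at the second Meg3 start 1, the 4 Igf2 windows 2 to 24, the Mirg window 10 and the Rasgrf1 window 26.
Meg3 start: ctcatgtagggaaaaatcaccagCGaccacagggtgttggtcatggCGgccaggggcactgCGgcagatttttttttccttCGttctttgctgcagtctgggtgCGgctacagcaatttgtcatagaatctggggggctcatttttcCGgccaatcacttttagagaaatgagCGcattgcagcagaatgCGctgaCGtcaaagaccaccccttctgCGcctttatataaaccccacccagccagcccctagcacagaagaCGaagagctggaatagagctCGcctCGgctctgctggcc
Dlk1 start: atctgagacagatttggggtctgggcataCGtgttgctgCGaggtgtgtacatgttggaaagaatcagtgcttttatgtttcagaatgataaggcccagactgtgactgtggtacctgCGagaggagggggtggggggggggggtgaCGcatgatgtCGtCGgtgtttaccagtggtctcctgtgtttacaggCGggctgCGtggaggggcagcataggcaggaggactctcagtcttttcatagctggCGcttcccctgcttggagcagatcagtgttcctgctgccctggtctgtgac
Zdbf2 upstream start: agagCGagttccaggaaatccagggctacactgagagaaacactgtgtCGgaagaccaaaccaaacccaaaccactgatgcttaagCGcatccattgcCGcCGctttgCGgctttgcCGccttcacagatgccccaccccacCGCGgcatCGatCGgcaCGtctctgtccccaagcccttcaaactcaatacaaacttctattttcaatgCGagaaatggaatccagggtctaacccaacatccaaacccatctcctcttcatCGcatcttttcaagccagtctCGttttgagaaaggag
Zdbf2 downstream start: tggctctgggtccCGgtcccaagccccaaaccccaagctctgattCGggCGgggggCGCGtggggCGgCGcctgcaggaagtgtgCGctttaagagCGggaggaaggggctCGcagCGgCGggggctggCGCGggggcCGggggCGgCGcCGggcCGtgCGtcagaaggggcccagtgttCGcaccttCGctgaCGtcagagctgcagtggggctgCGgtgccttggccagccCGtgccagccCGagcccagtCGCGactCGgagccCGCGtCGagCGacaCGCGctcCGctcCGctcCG

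The noncoding RNAs of both loci also host microRNAs, short RNAs that pair with messenger RNAs mainly through their seed, bases 2 to 8. The pair from the H19 transcript, miR-675-5p and miR-675-3p, is shown because its hairpin lies in an H19 exon, at chr7:142577112-142577133 and chr7:142577078-142577099 on the minus strand. The span of the 4 genes around Dlk1 and Meg3 on chromosome 12 holds 57 RefSeq hairpins with 112 mature microRNAs, of which 9 seeds are shared by 2 or more differently named ones. Of these, miR-379-3p (chr12:109709102-109709123) and miR-411-3p (chr12:109710225-109710246) lie next to each other, whereas miR-370-5p (chr12:109618270-109618289), inside Rian, and miR-1193-3p (chr12:109715750-109715770) lie apart, all on the plus strand. Capitals mark the seed, from RefSeq GRCm38.p6.
miR-675-5p: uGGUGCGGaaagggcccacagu
miR-675-3p: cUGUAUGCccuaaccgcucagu
miR-379-3p: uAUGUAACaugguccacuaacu
miR-411-3p: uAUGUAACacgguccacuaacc
miR-370-5p: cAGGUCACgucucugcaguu
miR-1193-3p: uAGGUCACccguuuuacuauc

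Mature microRNAs are too short for a poly(A) library of this kind, and only reads of their hairpin or host could be counted. Mir675 had 0 counts in all 4 libraries, which at this depth allows up to 3 counts in a library, beside 2388 to 11783 counts of its host H19. All of its 84 bases are also bases of an H19 exon, and no source used here gives how reads of shared bases were assigned. The limit of 3 counts therefore covers counting error only and not how such reads were assigned. Of the 60 microRNA rows between Dlk1 and Mirg, 6 held any count. Together those rows had 8 and 5 counts in Tex11PM/Y libraries A and B, and 5 and 3 in WT replicates 1 and 2. No comparison of microRNAs between genotypes was detectable at this depth.

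Facts of the libraries bear on every value that follows. Total counts were 19306140 and 19804951 in the Tex11PM/Y libraries A and B, and 19047148 and 19396809 in WT replicates 1 and 2, and 3 counts, the most that an observed 0 allows, equal 0.149 to 0.169 CPM (counts scaled to a common library size, here by the trimmed mean of M-values, TMM), which covers counting error only. Tex11 itself had 22.7 and 9.32 CPM in Tex11PM/Y libraries, against 66.4 and 126 CPM in WT libraries. Its log2 fold change of -2.59 missed the threshold (edgeR adjusted p = 0.884). The libraries most alike in counts were Tex11PM/Y library B and WT replicate 2, of different genotypes, with a chi-square per degree of freedom of 18.6, and the other pairs ranged from 86.0 to 216.7. The germ cell list was present throughout, with summed levels of 4439 and 4152 CPM in Tex11PM/Y libraries, against 3625 and 3914 CPM in WT libraries. Its single genes varied more, with 8 of 15 fitted higher in Tex11PM/Y, 7 lower and 0 past the threshold. Dazl held 1194 and 810 CPM in Tex11PM/Y libraries, against 552 and 876 CPM in WT libraries. Etv5 held 66.0 and 104 CPM, against 247 and 82.2 CPM. The Leydig and endothelial lists differed by at most 1.58-fold between libraries in their sums. The 13 Sertoli genes summed to 649 and 714 CPM in Tex11PM/Y libraries, against 619 and 646 CPM in WT libraries, most of it Dmrt1, which spermatogonia also express, and Fshr was at 0 in all 4. Without Dmrt1 the other 12 summed to 31.8 and 35.7 CPM in Tex11PM/Y libraries A and B, against 78.8 and 47.8 CPM in WT replicates 1 and 2. In WT replicate 1, the highest, Inhbb gave 39.2 and Clu 17.6 CPM of that sum. Of the 10 Sertoli genes tested 8 were fitted lower in Tex11PM/Y and 0 passed the threshold, with a median log2 fold change of -0.67. Macrophage genes, 10 markers, summed to 28.2 and 1280.3 CPM in Tex11PM/Y libraries A and B, against 644 and 536 CPM in WT replicates 1 and 2. The 24 fibroblast genes summed to 725 and 7589 CPM in Tex11PM/Y libraries A and B, against 21209 and 6065 CPM in WT replicates 1 and 2, a 29.2-fold range, and all 23 of them that were tested were fitted lower in Tex11PM/Y, though none passed the threshold. Of the fibroblast list Tcf21 was the sole gene at 0, in both WT libraries. The median gene of chromosome 12, which carries Dlk1, Meg3, Rian and Mirg, stood at -0.05 and -0.15 in the Tex11PM/Y libraries A and B, against -0.22 and 0.43 in WT replicates 1 and 2, in log2 CPM relative to each gene's mean over the libraries. These are bulk samples, in which fewer cells of a type and less RNA per cell cannot be told apart.

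Per length of transcript, H19 was by far the most abundant of the 8 genes and Mirg and Rasgrf1 the least. The scale is the authors' FPKM, mapped fragments scaled to transcript length and library size. Means over all 4 libraries ran from 120 FPKM for H19 through 21.4 for Igf2, 11.7 for Rian, 10.1 for Dlk1, 5.53 for Meg3, 3.22 for Zdbf2 and 0.801 for Rasgrf1 to 0.712 for Mirg. The ranges of H19 and Igf2 did not overlap, nor did those of Zdbf2 and Rasgrf1. Every other pair of neighbours in that order overlapped: Igf2 and Rian, Rian and Dlk1, Dlk1 and Meg3, and Meg3 and Zdbf2 each kept the order in 3 of 4 libraries, and Rasgrf1 and Mirg in 2 of 4. The order below H19 depended on the table. FPKM computed from the counts averaged 4.65 for Dlk1, 3.85 for Zdbf2, 1.84 for Rian, 1.74 for Igf2 and 1.48 for Meg3, which put Zdbf2 in place 3 and Igf2 in place 5 of the 8, where deposited FPKM put them in places 6 and 2. By deposited FPKM H19 stood at or above 97.1% to 99.6% of all genes of the table, Mirg at or above 60.1% to 65.9%.

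**Figure D1:**
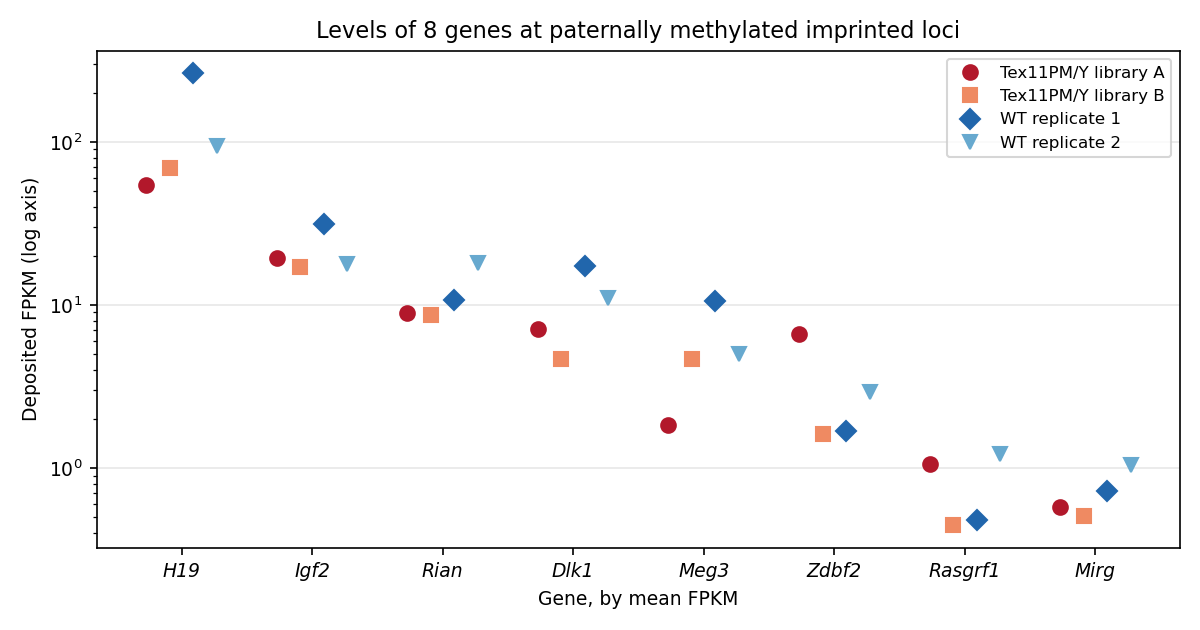
Deposited FPKM of the 8 genes (log axis) in Tex11PM/Y libraries A and B and WT replicates 1 and 2, 1 point per library, genes ordered by mean level. H19 spans 54.2 to 263 FPKM and is highest in WT replicate 1, and Zdbf2 alone of the 8 is highest in Tex11PM/Y library A, at 6.66 FPKM.

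Between genotypes, the noncoding RNAs H19, Meg3, Rian and Mirg and the protein-coding gene Dlk1 held lower values in both Tex11PM/Y libraries than in both WT libraries, Igf2, Rasgrf1 and Zdbf2 did not, and no gene passed the test. Of 17262 genes tested with edgeR's quasi-likelihood test, 0% passed a Benjamini-Hochberg adjusted p of 0.05, and 0 of the 8 did. With DESeq2 1 gene passed, none of the 8, and at an unadjusted edgeR p under 0.05 stood 466 genes. At an unadjusted p under 0.05 stood 3 of the 8, H19, Dlk1 and Meg3, all lower in Tex11PM/Y, where 1.71% of all genes tested were lower at that p and 2.7% differed in either direction. That count depended on the setting. Of these 3, H19 and Dlk1 alone stayed under 0.05 on log2(FPKM + 1), log2(FPKM + 0.1) and log2(TPM + 1) and without library A, H19 and Meg3 without library B, Dlk1 with the fibroblast covariate, H19 with equal chromosome medians and none without WT replicate 1. Both Tex11PM/Y libraries lay below both WT libraries in CPM for 5 of the 8, H19, Dlk1, Meg3, Rian and Mirg, against 16.3% of all genes. The same 5 lay below in FPKM. For Mirg the gap between library A and WT replicate 1, at 43 and 48 counts, was within counting error. Both lay above for 1 of the 8, Igf2, in CPM only, against 16.1% of all genes. The genotypes thus did not overlap in CPM for 6 of the 8, against 32.4% of all genes. The log2 fold change was below 0 for 6 of the 8, all but Igf2 and Zdbf2, against 49% of all genes. The median log2 fold change of the 8 was -0.65, beside 0.01 for all genes tested. These shares describe genes that partly share a locus, a chromosome and these 4 libraries, and are not independent of each other.

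**Figure D2:**
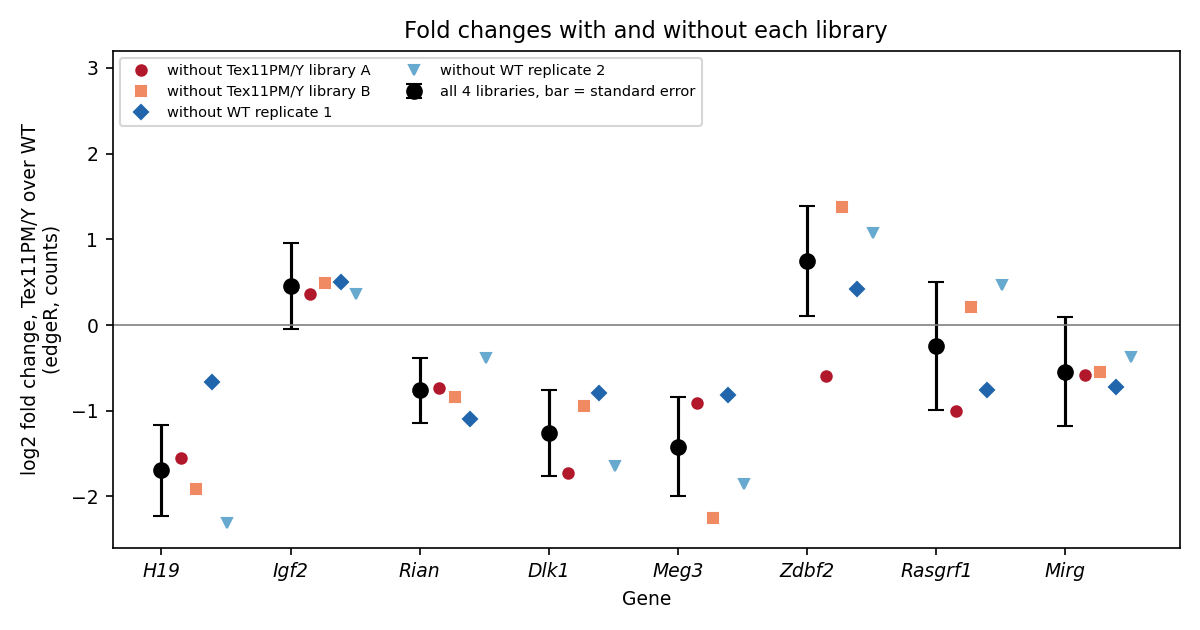
Log2 fold change in CPM of each gene, Tex11PM/Y over WT, from edgeR on all 4 libraries (black, bar = standard error) and with each library left out (coloured symbols). H19 stands at -1.70 with all libraries and at -0.67 without WT replicate 1, and the values of Zdbf2 and Rasgrf1 fall on both sides of 0.

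H19 is a long noncoding RNA of growing embryonic tissues, ENSMUSG00000000031.16, at chr7:142575529-142578143 on the minus strand (mm10). Its level was 54.2 and 69.3 FPKM in Tex11PM/Y libraries A and B, and 263 and 94.2 FPKM in WT replicates 1 and 2. Both Tex11PM/Y libraries lay below both WT libraries, and WT replicate 1 stood far above the other 3. In counts the levels were 2388 and 2993 in Tex11PM/Y libraries, against 11783 and 4177 in WT libraries. Means were 135 ± 20.4 CPM in Tex11PM/Y and 437 ± 319 CPM in WT (SD, n = 2 each). The log2 fold change of -1.70, with a standard error of 0.53, missed the threshold (edgeR adjusted p = 0.884). The Tex11PM/Y mean was 69.1% lower than the WT mean, and WT replicate 1 exceeded WT replicate 2 by 3.13-fold. Without WT replicate 1 the log2 fold change was -0.67, and without WT replicate 2 it was -2.32, in fits that assume the lone WT library varies like the others. With no filter on low counts H19 passed, at a log2 fold change of -1.73 (edgeR adjusted p = 0.0029, where the other 13 alternatives gave 0.14 to 1.0).

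Fibroblast genes and H19 both peaked in WT replicate 1. Between the Tex11PM/Y libraries H19 was 1.24-fold higher in B, where the fibroblast sum was 7589 CPM against 725 CPM in A. H19 per 1000 CPM of the fibroblast list was 166 and 19.7 CPM in Tex11PM/Y libraries A and B, against 31.2 and 34.8 CPM in WT replicates 1 and 2. All 8 genes had their highest value on this scale in library A, whose fibroblast sum is the lowest, and H19 itself was lowest there in CPM. Myoid genes are 7 markers of contractile cells around the tubule. They summed to 11.6 and 40.6 CPM in Tex11PM/Y libraries, against 234 and 43.7 CPM in WT libraries, and also peaked in WT replicate 1. Of that peak Acta2 gave 178 and Myl9 39.2 CPM, and Myh11 alone of the 7 was lowest in WT replicate 1, at 2.70 CPM. The Sertoli sum without Dmrt1 peaked there too, but through Inhbb and Clu, at 39.2 and 17.6 CPM. Sox9 and Wt1, at 5.51 and 1.40 CPM, were lowest in that library. Adding the fibroblast list's mean log2 CPM to the model gave H19 a log2 fold change of -1.10, with a standard error of 0.67. All 23 tested fibroblast genes were fitted lower in Tex11PM/Y, so this covariate and genotype could not be fully separated in 4 libraries. That limit holds for every value with the fibroblast covariate.

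Igf2, ENSMUSG00000048583.16 at chr7:142650766-142666816 on the minus strand, encodes an insulin-like growth factor and shares enhancers with H19. It gave opposite directions in the 2 kinds of table. By FPKM it held 19.4 and 17.1 in the Tex11PM/Y libraries A and B, and 31.4 and 17.8 in WT replicates 1 and 2. WT replicate 1 was high and the genotypes overlapped. By counts it held 222 and 198 in Tex11PM/Y libraries, and 143 and 145 in WT libraries. Here both Tex11PM/Y libraries lay above both WT libraries. Means were 10.5 ± 0.93 CPM in Tex11PM/Y and 7.68 ± 0.50 CPM in WT (SD, n = 2 each), with a log2 fold change of 0.45, a standard error of 0.50 and no pass of the threshold (edgeR adjusted p = 0.894). On the log2(FPKM + 1) scale the difference was -0.36 (limma adjusted p = 0.862, within 0.806 to 1.0 over all 14 alternatives).

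The Igf2 row of the count table holds few reads for its length. Of its 5249 exon bases 3694, or 70.4%, are shared with other annotated genes, 3596 of them with Gm49394, on the same strand, and 98 with Igf2os on the opposite strand. Gm49394 had 0 counts in all 4 libraries. Igf2os, whose reads cannot be told from those of Igf2 where their exons overlap because the kit is not stated to keep strand, had 82 and 43 counts in Tex11PM/Y libraries, against 19 and 72 in WT libraries. FPKM computed from the counts and the table's gene lengths was 0.0811 of the deposited FPKM for Igf2, beside a median of 1.19 over 13126 genes. Genes with at least 50% of their exon bases shared had a median of 0.110 (n = 329), and genes with no shared bases 1.22 (n = 9181). Rian, at 0.158, and Meg3, at 0.267, were also low, with 3.65% and 1.73% of exon bases shared. The ratio was 1.01 for H19, 1.19 for Zdbf2, 0.641 for Rasgrf1, 0.586 for Mirg and 0.462 for Dlk1.

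**Figure D3:**
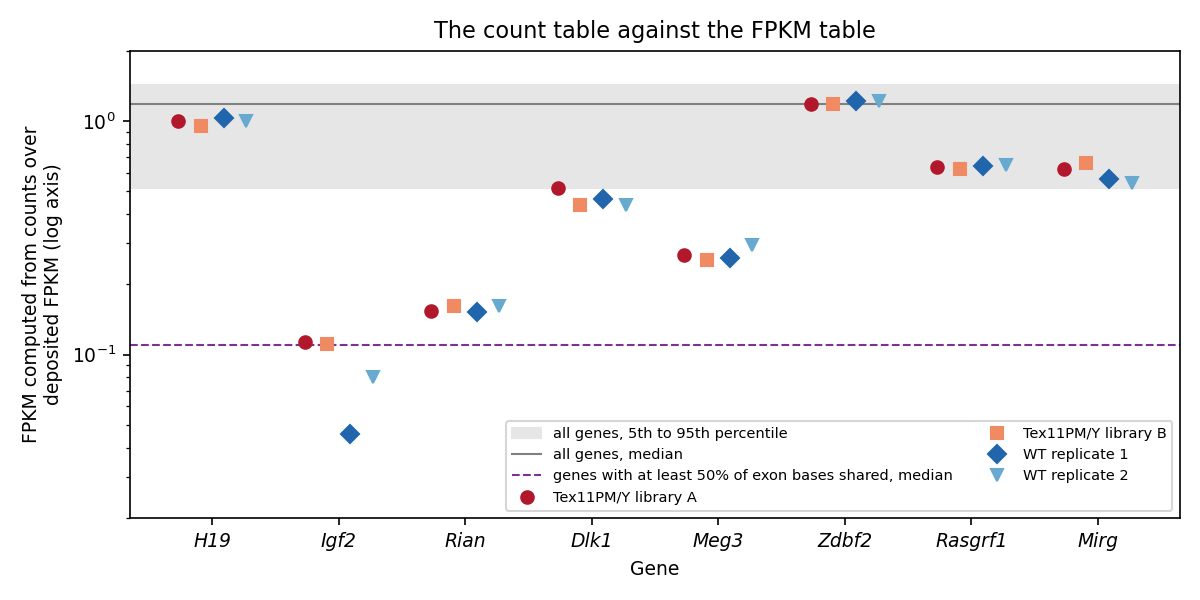
FPKM computed from counts over deposited FPKM (log axis) for each gene and library, with the 5th to 95th percentile of all genes (0.515 to 1.43, shaded), their median (line) and the median of genes with at least 50% of exon bases shared (dashed). Igf2 alone of the 8 varies widely between libraries, with WT replicate 1 lowest.

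The ratio of Igf2 to H19 within a library, in FPKM, was 0.358 and 0.247 in the Tex11PM/Y libraries A and B, and 0.119 and 0.189 in WT replicates 1 and 2. Both Tex11PM/Y libraries lay above both WT libraries. The mean log2 ratio was -1.75 ± 0.38 in Tex11PM/Y and -2.74 ± 0.47 in WT (SD, n = 2 each), a difference of 0.98. An exact two-sided permutation test gave p = 0.333, the smallest value that 2 libraries against 2 allow, over 4 such ratios tested. From CPM, in which the Igf2 row is thin, the difference was 1.93.

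Dlk1, ENSMUSG00000040856.17 at chr12:109452849-109463336 on the plus strand, encodes a transmembrane protein related to the Notch ligands. Its level was 7.14 and 4.65 FPKM in Tex11PM/Y libraries A and B, and 17.4 and 11.1 FPKM in WT replicates 1 and 2. Both Tex11PM/Y libraries were low and the genotypes did not overlap. Means were 13.4 ± 5.31 CPM in Tex11PM/Y and 32.0 ± 12.99 CPM in WT (SD, n = 2 each). The log2 fold change of -1.26, with a standard error of 0.50, missed the threshold (edgeR adjusted p = 0.884). It was -0.80 without WT replicate 1, and -1.61 with the fibroblast covariate.

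Meg3, ENSMUSG00000021268.17 at chr12:109541005-109571726 on the plus strand, is a noncoding RNA read from the maternal copy 77.7 kb beyond Dlk1. It held 1.83 and 4.68 FPKM in Tex11PM/Y libraries A and B, and 10.6 and 5.00 FPKM in WT replicates 1 and 2. The genotypes did not overlap, but library B and WT replicate 2 were nearly level. Library B exceeded library A by 2.46-fold in CPM. The fitted log2 fold change was -1.42 ± 0.58 (standard error; edgeR adjusted p = 0.884). Without Tex11PM/Y library A it was -0.91, without library B -2.26 and without WT replicate 1 -0.82. The fibroblast covariate brought it to -0.53. The order of the libraries in Meg3 is that of the fibroblast list except for library B and WT replicate 2, nearly level in Meg3, in which the fibroblast sum was 7589 and 6065 CPM.

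Rian and Mirg, noncoding RNAs downstream of Meg3 that carry small nucleolar RNAs and microRNAs, had another pattern. Rian, ENSMUSG00000097451.11 at chr12:109603808-109661716, held 8.96 and 8.73 FPKM in Tex11PM/Y libraries A and B, and 10.8 and 18.2 FPKM in WT replicates 1 and 2. Mirg, ENSMUSG00000097391.8 at chr12:109729764-109749460, held 0.580 and 0.506 FPKM in Tex11PM/Y libraries, and 0.722 and 1.04 FPKM in WT libraries. In both genes WT replicate 2 was the high library, the Tex11PM/Y libraries were nearly level, and the genotypes did not overlap. Mirg rested on 43 and 41 counts in Tex11PM/Y libraries, against 48 and 68 in WT libraries. Its 95% counting intervals for library A, 31.1 to 57.9, and WT replicate 1, 35.4 to 63.6, overlapped. The log2 fold changes were -0.76 with a standard error of 0.38 for Rian and -0.54 with a standard error of 0.64 for Mirg, and neither passed the threshold (edgeR adjusted p = 0.884 and 0.896).

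WT replicate 2 is also the library in which chromosome 12 as a whole stood high. With the median of every chromosome set equal in each library, the log2 fold changes were -0.52 for Rian, -0.34 for Mirg, -1.19 for Dlk1 and -1.34 for Meg3. Without WT replicate 2 the value for Rian was -0.38, that for Mirg -0.38, that for Dlk1 -1.65 and that for Meg3 -1.86. The genotypes thus kept their direction for all 4 genes of the locus in both settings. Equal medians made all 4 values smaller in size. Leaving out WT replicate 2 made those of Rian and Mirg smaller and those of Dlk1 and Meg3 larger.

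Within the locus the genes did not move as a block. Dlk1 over Meg3, in FPKM, was 3.91 and 0.994 in the Tex11PM/Y libraries A and B, and 1.64 and 2.21 in WT replicates 1 and 2. The WT libraries lay between the Tex11PM/Y ones. Rian over Meg3 was 4.90 and 1.87 in Tex11PM/Y libraries, and 1.02 and 3.63 in WT libraries. Mirg over Meg3 was 0.317 and 0.108 in Tex11PM/Y libraries, and 0.0679 and 0.208 in WT libraries. In both of these ratios library A was highest and WT replicate 1 lowest, and the genotypes overlapped. Differences in mean log2 ratio were 0.05, 0.65 and 0.64 for Dlk1, Rian and Mirg over Meg3 (exact two-sided permutation p = 1.0, 0.667 and 0.667, where the smallest possible is 0.333). All 3 changed sign without library A and without WT replicate 1. The closest pair among the 8 genes was Rian and Mirg, with a root mean square difference of 0.17 between their log2 CPM values centred on the gene mean, over 4 libraries. Such closeness was not particular to the locus. Of 10881 genes at a mean of at least 5 CPM, 270 came within 0.2 of Mirg and 56 within 0.2 of Rian.

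**Figure D4:**
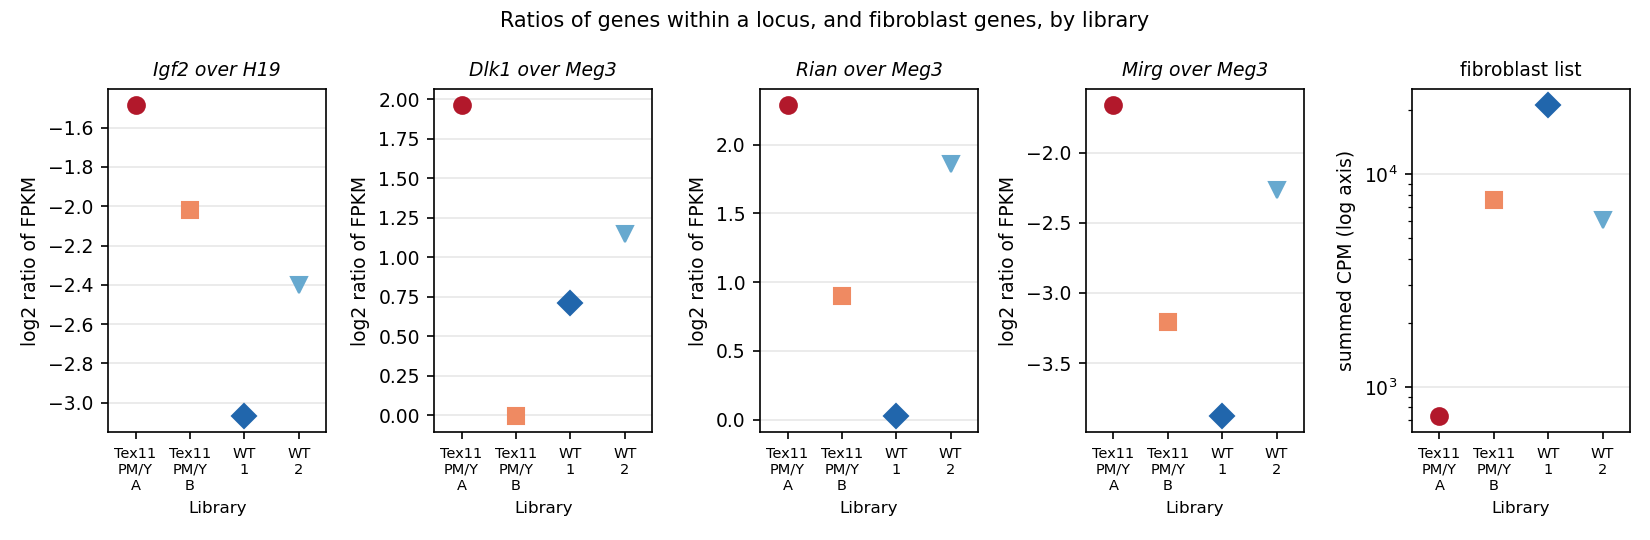
Log2 ratio of FPKM within each library for Igf2 over H19 and for Dlk1, Rian and Mirg over Meg3, and the summed CPM of the 24 fibroblast genes (log axis), for Tex11PM/Y libraries A and B and WT replicates 1 and 2. Igf2 over H19 alone separates the genotypes, and library A and WT replicate 1 are the extremes of the ratios of Rian and Mirg over Meg3 and of the fibroblast sum.

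Rtl1, the paternally expressed retrotransposon-derived gene opposite to microRNAs between Meg3 and Rian, had 0 and 10 counts in Tex11PM/Y libraries A and B, against 5 and 3 in WT libraries, of either strand. No other gene within 250 kb of the locus reached a mean of 1 CPM: 88 of 104 rows there held no count. Farther out, and chosen after their values were seen, Begain, 385 kb before Dlk1, had 531 and 573 counts in Tex11PM/Y libraries, against 524 and 932 in WT libraries. Dio3, a thyroid hormone deiodinase gene 530 kb beyond Mirg, had 105 and 46 counts in Tex11PM/Y libraries, against 8 and 33 in WT libraries. Its log2 fold change of 1.83 did not pass the threshold (edgeR adjusted p = 0.884), and stood opposite in sign to those of Dlk1, Meg3, Rian and Mirg.

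Zdbf2, ENSMUSG00000027520.15 at chr1:63273265-63314576 on the plus strand, encodes a zinc finger protein that is read from the paternal copy. Its level was 6.66 and 1.61 FPKM in Tex11PM/Y libraries A and B, and 1.70 and 2.91 FPKM in WT replicates 1 and 2. Library A was high, library B was the lowest of all, and the genotypes overlapped. Library A exceeded library B by 4.07-fold in CPM, the widest gap between libraries of a genotype among the 8 genes. Means were 60.2 ± 51.6 CPM in Tex11PM/Y and 36.0 ± 11.3 CPM in WT (SD, n = 2 each). The fitted log2 fold change was 0.74 ± 0.64 (standard error; edgeR adjusted p = 0.884). It turned to -0.60 when library A was left out and to -0.83 with the fibroblast covariate. The covariate largely sets library A apart, so these settings are not independent. Library A also held the fewest fibroblast and macrophage counts, and the part of macrophages in the result was not tested.

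The row of the count table starts at the downstream Zdbf2 start shown above, so its exons do not reach the upstream one. At the upstream start, Platr12 had 0 and 0 counts in Tex11PM/Y libraries, against 0 and 1 in WT libraries. Gpr1, which spans that start on the minus strand, had 3 and 1 counts in Tex11PM/Y libraries, against 10 and 5 in WT libraries. With 10 counts or fewer in a library in both rows, no difference between genotypes was detectable at this depth. Of the neighbours of Zdbf2 at 1 CPM or more, Ino80d, a subunit gene of the INO80 chromatin remodeller, ordered the libraries much as Zdbf2 did, with a high library A: 113 and 42.6 CPM in Tex11PM/Y libraries, against 29.6 and 45.3 CPM in WT libraries. The other 6 were Ino80dos, Gm20342, Ndufs1, Eef1b2, Gm27390 and Adam23, with log2 fold changes from -0.94 for Adam23 to 1.39 for Gm20342, and none passed the threshold.

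Rasgrf1, ENSMUSG00000032356.12 at chr9:89909908-90026977 on the plus strand, encodes an exchange factor that loads Ras and Rac with GTP. It held 1.06 and 0.446 FPKM in Tex11PM/Y libraries A and B, and 0.483 and 1.21 FPKM in WT replicates 1 and 2. Each genotype had a high and a low library, and the genotypes overlapped fully. Means were 3.97 ± 2.30 CPM in Tex11PM/Y and 4.69 ± 2.66 CPM in WT (SD, n = 2 each). The log2 fold change of -0.24, with a standard error of 0.74, was smaller than the spread between libraries (edgeR adjusted p = 0.964). Its sign turned without library B, at 0.21, and without WT replicate 2, at 0.47, and it was -1.25 with the fibroblast covariate. The neighbours Tmed3, Ctsh, Morf4l1, Adamts7 and Tbc1d2b had log2 fold changes from -1.05 for Tmed3 to -0.02 for Morf4l1, and none passed the threshold. The neighbours of H19 and Igf2 at 1 CPM or more were Ifitm10, Ctsd, Lsp1, Mrpl23 and Igf2os, with -1.73 for Ifitm10 to 0.41 for Igf2os, and again none passed.

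The genes whose pattern over the 4 libraries was most like that of each of the 8 were taken by the smallest root mean square difference of centred log2 CPM among 10881 genes. H19 was closest to Dok1, Rpl39 and Pgm5, at 0.08 to 0.09. Rpl39 held 66.8 and 79.8 CPM in Tex11PM/Y libraries, against 356 and 131 CPM in WT libraries. Igf2 was closest to Aida, Rpusd4 and Smg9, at 0.03 to 0.04, with 129 genes within 0.1, a likeness of its count row only, since by FPKM WT replicate 1 stood apart. Meg3 was closest to Elk3, Rhob and Hebp1, and Dlk1 to Acot1, Zfp775 and Igbp1, where no gene came within 0.1 of Dlk1. Rian was closest to Fam43a, Zfp36l1 and Nlrc5, and Mirg to Zc2hc1c, Dtd2 and Itpr1. Of these Zfp36l1, Zc2hc1c and Dtd2 lie on chromosome 12, as do Acot1 for Dlk1, Rhob for Meg3 and Gen1 for Rasgrf1. That chromosome holds 632 of the 17262 genes tested, and its share of the 10881 genes searched was not counted. Rasgrf1 was closest to Stra8, the retinoic acid-induced gene of differentiating germ cells, with Gen1 and Ccdc152. These lay at 0.13 to 0.16, and no gene came within 0.1 of Rasgrf1 either. Stra8 held 17.4 and 8.92 CPM in Tex11PM/Y libraries, against 10.8 and 20.9 CPM in WT libraries. Zdbf2 was closest to Zfp267, Snhg11 and Zfp445, at 0.03 to 0.07. Zfp445 held 105 and 25.8 CPM in Tex11PM/Y libraries, against 29.0 and 42.7 CPM in WT libraries.

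Zfp445 is also among the genes that write, protect or erase imprints, of which 0 of 21 tested passed the threshold. Of these 14 had a log2 fold change above 0 and 7 below, with a median of 0.11, beside 0.01 for all genes. Values stood at 0.79 for Nsd1, a histone methyltransferase, and 0.57 for Tet3, a dioxygenase that oxidises methylated cytosine, against -1.03 for Dppa3, a protector of methylation marks in the zygote, and -0.77 for Zfp57, which binds methylated imprinting control regions. Dppa3 held 5.34 and 5.78 CPM in Tex11PM/Y libraries, against 6.40 and 16.2 CPM in WT libraries, and was high only in WT replicate 2. Imprinted genes with a mark from the egg had a median of 0.03 over 31 tested, 16 above and 15 below 0. None passed, and Grb10, an adaptor that restrains insulin and growth factor signalling, had the lowest p among them. It held 12.4 and 23.4 CPM in Tex11PM/Y libraries, against 80.8 and 36.5 CPM in WT libraries, the same order of libraries as Meg3. Kcnq1ot1 and Inpp5f were fitted higher, at 1.74 and 0.68, and Peg13 lower, at -1.81. Kcnq1ot1 was high only in library A, with 20.4 and 3.64 CPM in Tex11PM/Y libraries A and B, against 3.09 and 4.10 CPM in WT libraries.

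Around Igf2, the list of its receptors, binding proteins and RNA-binding proteins had 0 of 17 past the threshold, with 7 above and 10 below 0 and a median of -0.28. Igf2bp3, which binds Igf2 messenger RNA, held 47.7 and 29.0 CPM in Tex11PM/Y libraries, against 17.8 and 17.2 CPM in WT libraries (log2 fold change 1.13, edgeR adjusted p = 0.884). The receptor gene Igf1r stood at 0.48, and the binding protein gene Igfbp2 at -0.74. Htra1, a secreted protease, stood at -2.77, with 0.957 and 33.3 CPM in Tex11PM/Y libraries, against 204 and 29.3 CPM in WT libraries. Around Dlk1, the Notch list had 0 of 16 past the threshold, 6 above and 10 below 0 with a median of -0.17. Notch2 and Dlk2 stood at 0.28 and 0.44, Notch3 at -1.97 and the ligand gene Jag2 at -0.55. Around Rasgrf1, the Ras list had 0 of 13 past the threshold, 8 above and 5 below 0 with a median of 0.12, with Rasa1 at 0.90, Sos1 at 0.59, Rasgrp2 at -0.35 and Rac1 at -0.28.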

How the data were processed

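RNA of 2 Tex11PM/Y and 2 WT libraries of mouse SSCs was compared. Tools named in the submitters' processing notes, without roles or versions, are STAR, StringTie, featureCounts, fastp and DESeq2, with the build mm10. The authors deposited a table of raw read counts for 55335 genes, laid out as featureCounts writes it, and FPKM and TPM tables for 37653 genes, per the file headers. TPM was used only as an alternative. Gene positions (mm10) come from the count table. The 8 genes and all lists were chosen with earlier results of these data known. The labels do not tie the Tex11PM/Y columns to a replicate number.

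Counts were analysed with edgeR 4.0.16 in R 4.3.3: filterByExpr, TMM, robust quasi-likelihood fits on genotype alone, and p-values adjusted by Benjamini-Hochberg over 17262 genes, with 0.05 as the threshold. The biological coefficient of variation was 43.4%. CPM used TMM library sizes, and centred log2 CPM a prior count of 2. Standard errors are the log2 fold change divided by the root of its F statistic. Within-locus ratios were tested with exact permutation in SciPy 1.17.1. Exon overlap was counted from the count table's exons.

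All 8 genes are named, as are neighbours within 250 kb at a mean of at least 1 CPM, in each list the 2 smallest p in each direction at a mean of at least 5 CPM, and the 3 genes most alike at a mean of at least 5 CPM. Cell type lists were fibroblast, Sertoli, Leydig, myoid, endothelial, macrophage and germ cell. As alternatives the counts were fitted with DESeq2 1.42.0, with DESeq2 size factors in edgeR, with plain library sizes, with no filter on low counts and with a minimum of 1 CPM in 2 libraries. Further alternatives were limma 3.58.1 on log2(FPKM + 1), log2(FPKM + 0.1) and log2(TPM + 1), the fibroblast covariate, equal chromosome medians and leaving out each library.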

Additional observations from a re-analysis of the deposited data

How the results depend on the processing

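The number of the 8 genes past the threshold was 0 under every alternative run but no filter on low counts, where it was 1, H19 (log2 fold change -1.73). Over all genes the number past the threshold was 0 in the reported fit, 1 with DESeq2, 50 with no filter and 0 to 518 with a library left out, the 518 without Tex11PM/Y library B, a fit that assumes its lone Tex11PM/Y library varies like the WT libraries. H19, Dlk1, Meg3, Rian and Mirg kept a negative log2 fold change in all 14 alternatives. Igf2 turned to -0.36 on log2(FPKM + 1), -0.38 on log2(FPKM + 0.1) and -0.25 on log2(TPM + 1). Zdbf2 turned to -0.83 with the fibroblast covariate. With a library left out the range was -0.999 to 0.47 for Rasgrf1 and -0.60 to 1.38 for Zdbf2, and for the log2 ratios 0.65 to 1.32 for Igf2 over H19, -0.94 to 1.04 for Dlk1 over Meg3, -0.26 to 1.57 for Rian over Meg3 and -0.17 to 1.45 for Mirg over Meg3. The cause was not tested. With 0 of the list genes past the threshold, no filter left that count at 0. No paired analysis was possible because the Tex11PM/Y libraries share a column name and with it a replicate number. The depth limits Mirg, Rasgrf1, the microRNA rows and Rtl1, and 2 libraries a genotype limit every comparison.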
